A study of Mus musculus with 16 samples.

Results

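Immediate early genes are the genes that cells transcribe within minutes of a stimulus, before any new protein has been made. The set described here holds 10 of them, Fos, Fosb, Jun, Junb, Egr1, Atf3, Nr4a1, Ier2, Dusp1 and Btg2, chosen by name and matched by Ensembl gene identifier to 10 of the 30153 genes measured. Their transcription is switched on by proteins already present, such as serum response factor and cAMP response element binding protein, which kinases activate when a receptor, stretch or a rise in calcium is sensed. The messages are short-lived, so their level in a tissue reflects its recent past. In the heart they are known for their response to pressure load, adrenergic agonists and angiotensin II. The handling of an animal and the time until the tissue is frozen can also induce them, and the labels record neither.

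RNA was sequenced from 16 mouse hearts in 4 groups. The first holds adult C57/BL6 mice (n = 3), named C57 adult here, with no transgene and no diet given. The other groups are mice of the same strain with the human gene for the angiotensin II type 1 receptor, in its haplotype I form. They are called Hap-I mice, and the series title says that they overexpress this receptor. They are aged mice (n = 4), aged mice on a western diet (n = 5) and adult mice on a western diet (n = 4). The design text names the adult Hap-I group without a diet, whereas all 4 of its sample labels state one, so every value of that group is open to this conflict. No adult Hap-I group without the diet, aged C57 group or C57 group on the diet was analysed here, so transgene, age and diet cannot be told apart in the comparisons with C57. The labels give no promoter of the transgene, sex, age in months or hour of collection.

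RefSeq promoters were matched for 8 of the 10 genes, all but Egr1 and Ier2. Of these, 5 are shown, picked after the values were seen: Fos and Dusp1, which passed a test between groups, Btg2 and Nr4a1, which were correlated with Fos over the hearts, and Jun, which was not. Each line gives bases of the build GRCm38.p6 before the RefSeq start of transcription, read 5′ to 3′ along the gene's own strand. Capitals mark TGACG, the core of the cAMP response element, on either strand (CGTCA where it lies on the other strand).
Fos, chr12:85473640-85473889, plus strand: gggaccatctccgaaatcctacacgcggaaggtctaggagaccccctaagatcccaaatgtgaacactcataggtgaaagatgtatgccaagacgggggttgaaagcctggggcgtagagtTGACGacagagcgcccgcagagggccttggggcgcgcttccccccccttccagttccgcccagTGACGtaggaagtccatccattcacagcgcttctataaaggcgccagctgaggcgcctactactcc
Dusp1, chr17:26508520-26508722, minus strand: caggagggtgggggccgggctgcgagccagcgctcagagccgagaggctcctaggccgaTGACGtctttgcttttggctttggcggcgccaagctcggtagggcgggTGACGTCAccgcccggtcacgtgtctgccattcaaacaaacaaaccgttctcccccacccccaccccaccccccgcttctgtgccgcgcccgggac
Btg2, chr1:134079156-134079405, minus strand: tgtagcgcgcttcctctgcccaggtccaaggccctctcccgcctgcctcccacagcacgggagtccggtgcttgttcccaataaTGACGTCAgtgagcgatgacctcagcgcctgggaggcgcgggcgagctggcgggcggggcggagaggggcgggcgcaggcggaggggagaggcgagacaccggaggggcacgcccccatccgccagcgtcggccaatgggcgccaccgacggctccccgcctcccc
Nr4a1, chr15:101266596-101266845, plus strand: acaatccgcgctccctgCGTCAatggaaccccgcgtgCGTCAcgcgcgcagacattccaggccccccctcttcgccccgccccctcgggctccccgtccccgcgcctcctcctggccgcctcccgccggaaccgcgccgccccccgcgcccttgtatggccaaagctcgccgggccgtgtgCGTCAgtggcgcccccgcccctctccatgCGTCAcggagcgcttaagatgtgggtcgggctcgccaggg
Jun, chr4:95052223-95052472, minus strand: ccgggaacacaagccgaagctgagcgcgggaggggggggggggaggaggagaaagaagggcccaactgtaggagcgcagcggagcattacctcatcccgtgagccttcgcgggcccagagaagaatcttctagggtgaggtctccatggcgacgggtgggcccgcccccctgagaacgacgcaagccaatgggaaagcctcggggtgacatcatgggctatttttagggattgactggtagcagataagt
The Dusp1 line ends 47 bases short of the RefSeq start because annotated exons begin there.

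TGACG was present in the 250 bases before the start in 7 of the 8 promoters, all but Jun, and in 17.8% of all 32851 RefSeq promoter windows of that length. Positions are counted back from -1 at the base before the start. Fos held 2 copies, at -129 and -66, and Nr4a1 held 4, all on the other strand. Atf3, whose line is not shown, held 1 copy, at -7, where annotated exons begin. Its r with Fos over the hearts was 0.16. Junb, not shown either, held 1 copy, at -106, and had an r of 0.78 with Fos, above that of Nr4a1 (0.67). Whether the motif goes with the correlation between genes was not tested. The whole element TGACGTCA, which contains TGACG on both strands, was found in Dusp1, from position -143, and in Btg2, from position -166. It was present in 1.55% of all windows. The GC box GGGCGG, which can overlap the EGR motif, lay in 7 of the 8 (32.7% of all windows), and the EGR motif GCGNGGGCG in Fosb, Nr4a1 and Btg2 (4.7% of all windows). TATAAA lay in the Fos window (12.4% of all windows). The AP-1 motif TGANTCA (6.75% of all windows) was found in none of the 8 windows. Nor was the CArG box, the motif of serum response factor (1.47% of all windows). Bases farther upstream were not searched, nor were Egr1 and Ier2, so this absence covers the 8 windows alone. The 8 windows held 58.4% to 74.4% G and C, against a median of 52.4% over all windows. The shares of all windows were not matched for this, and enrichment was not tested. Both strands were searched in every case, and a match in these letters is a description and not a measured site.

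**Figure D1:**
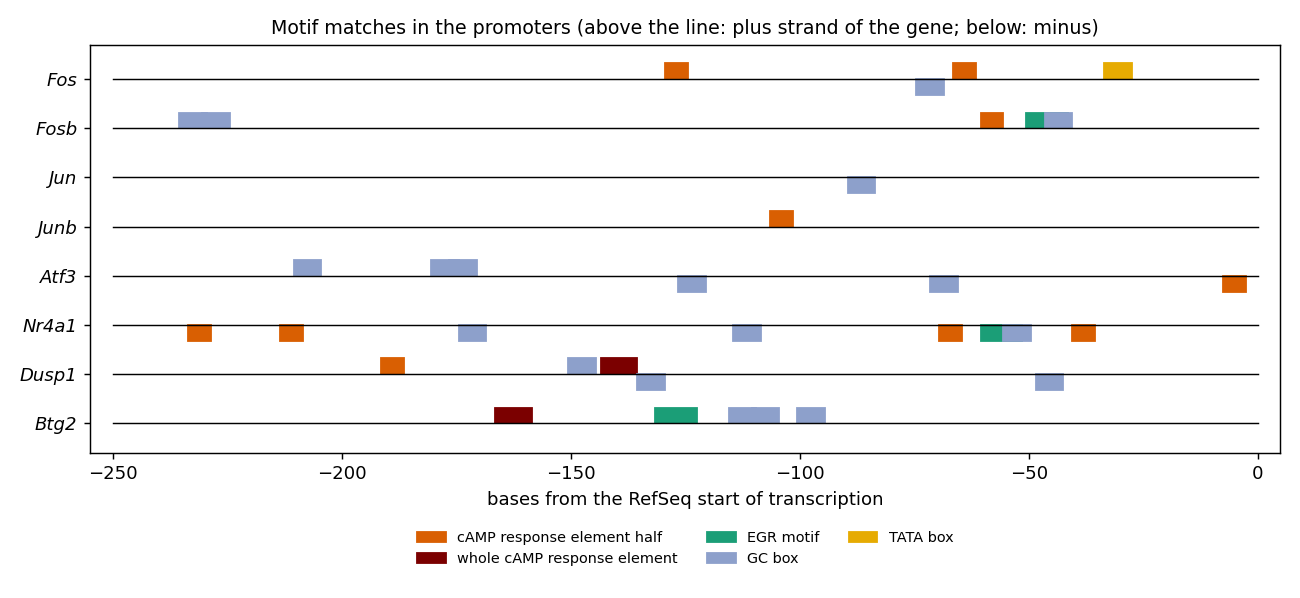
Motif matches in the 250 bases before the RefSeq start of 8 immediate early genes. The horizontal axis is the distance from the start in bases, and boxes above and below each line are matches on the gene's own and on the other strand. Every line except Jun carries a match to the cAMP response element or its core.

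The unit of every level below is scaled TPM, a measure of transcript abundance corrected for transcript length and library total, then divided by a size factor of the library. TPM keep no sequencing depth, so the depth is unknown and errors are spreads between animals. Size factors ran from 0.682 to 1.24, and 9553 to 11175 genes reached 1 TPM in a library. The share of TPM from the mitochondrial genome was 31.1% to 40.3% in C57 hearts, 34.6% to 36.5% in aged Hap-I hearts, 37.2% to 45.9% in aged Hap-I hearts on the diet and 38.7% to 46.1% in adult Hap-I hearts on the diet. Y-linked transcripts were near 0 in 5 hearts, all of them on the diet: replicates 1, 2 and 3 of the aged group and replicates 1 and 2 of the adult group. Of the 10 immediate early genes, 9 reached 1 TPM in at least 3 libraries and were tested among 11415 genes, and Fosb did not.

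All 10 genes were low to moderate in these hearts. By mean over the 16 hearts the order was Btg2 (12.9 ± 3.72, SD), Jun (9.36 ± 2.39), Egr1 (8.51 ± 7.15), Dusp1 (8.44 ± 4.30), Nr4a1 (6.98 ± 3.99), Ier2 (6.73 ± 2.75), Junb (3.93 ± 2.46), Fos (3.06 ± 2.33), Atf3 (2.81 ± 1.30) and Fosb (0.0649 ± 0.0991). Neighbours in this order mostly overlapped: Egr1 was above Dusp1 in 5 of 16 hearts, Nr4a1 above Ier2 in 5 and Fos above Atf3 in 7, whereas Ier2 was above Junb in all 16. The span from the lowest to the highest heart was 10.2-fold for Fos and 9.90-fold for Egr1, and 2.26-fold for Btg2. Within groups, the residual SD of log2(scaled TPM + 1) was above the median of all genes tested for all 9 genes. Its median was 0.44 over the 9 genes and 0.18 over all genes, and the value for Egr1, 0.71, was higher than that of 98.9% of the genes tested.

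Fos (chr12:85473890-85477273, plus strand, GRCm38) encodes a leucine zipper protein that pairs with Jun proteins to form the transcription factor AP-1. Levels were 1.61, 0.776 and 0.866 scaled TPM among C57 animals (n = 3), and 2.21, 1.28, 0.887 and 1.28 among aged Hap-I animals (n = 4). In adult Hap-I hearts on the diet it was at 6.23, 7.90, 4.04 and 3.25, so that every heart of this group was above all 7 hearts without the diet. Aged hearts on the diet ranged more widely, with 0.855, 5.96, 2.17, 3.58 and 6.01 in replicates 1 to 5. Replicate 1 was as low as the hearts without the diet, and 3 of the 5 were above them all. The 7 hearts without the diet pool adult C57 and aged Hap-I hearts, so such counts do not isolate the diet. No share over all genes was computed for them, here or below. The mean of the adult diet group was 4.94-fold that of C57 (5.36 ± 2.11 against 1.08 ± 0.457, SD), a log2 fold change of 1.57 ± 0.38 (SE) in the limma fit with an adjusted p of 0.0378. On this log2(scaled TPM + 1) scale the fold change of a gene at such low levels is understated.

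The other Fos comparisons did not pass an adjusted p of 0.05. The log2 difference was 1.03 ± 0.37 for aged diet hearts against C57 (adjusted p = 0.0556), 0.83 ± 0.34 for aged diet hearts against aged hearts (0.252) and -1.36 ± 0.36 for aged hearts against adult diet hearts (0.0584). In the last of these the 2 groups did not overlap, the adult diet mean being 3.79-fold the aged mean. The call against C57 was lost on leaving out C57 replicate 1, 2 or 3 (adjusted p = 0.0835, 0.0821 and 0.136), aged replicate 2 or 4 (both 0.0523) or adult diet replicate 1, 2 or 3 (0.0682, 0.0990 and 0.0625). The log2 difference itself stayed between 1.40 and 1.74 in these fits. Among the 11 hearts with Y-linked transcripts it was 1.18 for the adult diet group (adjusted p = 0.0604) and 1.47 for the aged diet group (0.0119).

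Fosb (chr7:19302696-19310051, minus strand) encodes a close relative of Fos. It was listed at 0 in all 3 C57 hearts and all 4 aged Hap-I hearts. In aged hearts on the diet it was at 0.125, 0.0692 and 0.143 in replicates 1 to 3 and listed at 0 in replicates 4 and 5. Adult hearts on the diet held 0.256, 0.291 and 0.154 in replicates 1, 2 and 4, and replicate 3 was listed at 0. All 6 hearts with a value above 0 were thus on the diet, at levels too low to be tested.

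Junb, Jun and Atf3 complete the AP-1 genes of the set. Junb (chr8:84974484-84978718, minus strand) encodes a Jun protein of weaker transactivating activity, and Jun (chr4:95049034-95052222, minus strand) encodes the main partner of Fos. Junb ran from 1.12 to 4.05 in the 7 hearts without the diet and from 1.89 to 9.84 in the 9 with it, 5 of which were above 4.05. Its log2 difference from C57 was 0.73 ± 0.39 in aged diet hearts (adjusted p = 0.191) and 0.67 ± 0.41 in adult diet hearts (0.369). Of its 31-base words, 6.52% also occur in other transcripts, among them those of the overlapping gene Prdx2 on the other strand.

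Jun did not follow Fos. Aged Hap-I hearts were at 9.78 to 11.96, above all 4 adult diet hearts (6.10 to 9.56) and above all 3 C57 hearts (7.45 to 9.72). The differences were 0.33 ± 0.20 (adjusted p = 0.346) and 0.29 ± 0.22 (0.399), neither past the threshold. The highest Jun value of all, 16.3, came from aged diet replicate 5, and the other 4 hearts of that group lay between 6.55 and 9.02. Of its 31-base words, 6.39% are shared with its antisense gene Junos. Whether the quantification used strand is not given in the sources used here, so a part of the Jun and Junb reads is uncertain.

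Atf3 (chr1:191170296-191218039, minus strand) encodes a stress-induced repressor of the same leucine zipper class. Its group means lay between 2.57 and 3.36, and its largest log2 difference was -0.29 ± 0.29 between the aged and adult diet groups (adjusted p = 0.617). The highest hearts were adult diet replicate 4 (6.02) and aged diet replicate 5 (5.12).

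Egr1 (chr18:34859823-34864984, plus strand) encodes a zinc finger factor that binds GC-rich sites. It was at 5.85, 2.51 and 2.40 in C57 hearts and at 7.17, 3.67, 3.18 and 4.84 in aged Hap-I hearts. In aged hearts on the diet it was at 3.67, 11.03, 3.99, 8.05 and 23.8, and in adult hearts on the diet at 18.6, 23.4, 9.03 and 4.97. In each diet group 3 hearts were above all hearts without the diet, and replicates 1 and 3 of the aged and replicate 4 of the adult group were not. The adult diet mean was 3.90-fold that of C57, but the spread within the group was large. The log2 difference of 1.58 ± 0.54 had an adjusted p of 0.110, and that of aged diet hearts against C57, 1.07 ± 0.52, had one of 0.150.

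Nr4a1 (chr15:101254269-101274795, plus strand) encodes an orphan nuclear receptor that acts in metabolism and cell survival. It was at 2.46, 3.49 and 5.74 in C57 hearts, at 7.69, 3.64, 3.98 and 9.76 in aged Hap-I hearts and at 1.81, 6.86, 6.62, 4.15 and 8.72 in aged hearts on the diet. Adult hearts on the diet held 14.2, 13.3, 5.67 and 13.7, of which 3 were above every other heart of the study. Aged diet hearts overlapped aged hearts without the diet, with means of 5.63 and 6.27. The adult diet mean was 3.00-fold that of C57, with a log2 difference of 1.36 ± 0.42 and an adjusted p of 0.0803, and it was 2.08-fold that of aged diet hearts, whose log2 difference from it was -0.99 ± 0.37 (0.147).

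Ier2 (chr8:84661331-84662852, minus strand) encodes a small nuclear protein. It ran from 3.50 to 8.18 in hearts without the diet and from 3.36 to 13.8 in hearts with it. Of the latter, 3 were above 8.18, and the lowest heart of all was adult diet replicate 4. None of its 6 differences passed the threshold, the largest being -0.44 ± 0.31 between aged and adult diet hearts (adjusted p = 0.420).

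Dusp1 (chr17:26505590-26562128, minus strand) encodes a phosphatase that inactivates p38, JNK and ERK and so closes the loop on the kinases that induce it. It was at 5.50, 3.65 and 4.81 in C57 hearts and at 5.60, 4.48, 4.41 and 6.12 in aged Hap-I hearts. In aged hearts on the diet replicate 1 was at 5.22 and the other 4 were at 17.7, 13.2, 11.7 and 11.8. Adult hearts on the diet were at 10.2, 12.8, 12.3 and 5.49. Of the 9 diet hearts, 7 were above all hearts without the diet, and aged replicate 1 and adult replicate 4 were not. As for Fos, this count has no share over all genes beside it. The aged diet mean was 2.56-fold that of C57 (11.9 ± 4.47 against 4.66 ± 0.934, SD), with a log2 difference of 1.12 ± 0.29 and an adjusted p of 0.0140.

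Against aged hearts without the diet, the comparison in which the labels differ by diet alone, the aged diet mean of Dusp1 was 2.31-fold that of aged hearts. The hearts themselves differed in more than the diet. Y-linked transcripts were present in 4 of 4 aged hearts and in 2 of 5 aged diet hearts. The mitochondrial share was 34.6% to 36.5% against 37.2% to 45.9%. The log2 difference was 1.00 ± 0.27 with an adjusted p of 0.0994. With a library left out this p ran from 0.0279, without aged diet replicate 1, to 0.261. The call against C57 was lost without C57 replicate 2 (adjusted p = 0.0579). Adult diet hearts differed from C57 by 0.94 ± 0.30 (adjusted p = 0.0921). With a library left out that p ran from 0.0333, without adult diet replicate 4, to 0.224.

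Btg2 (chr1:134075170-134079120, minus strand) encodes an antiproliferative protein that recruits the machinery of mRNA deadenylation. It was at 12.5, 9.24 and 13.9 in C57 hearts, at 9.24, 8.93, 9.82 and 11.4 in aged Hap-I hearts, at 8.52, 18.3, 10.6, 13.2 and 19.2 in aged diet hearts and at 19.3, 17.0, 12.1 and 13.7 in adult diet hearts. All 4 adult diet hearts were above all 4 aged hearts without the diet. The log2 difference of -0.59 ± 0.21 between these groups had an adjusted p of 0.140.

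**Figure D2:**
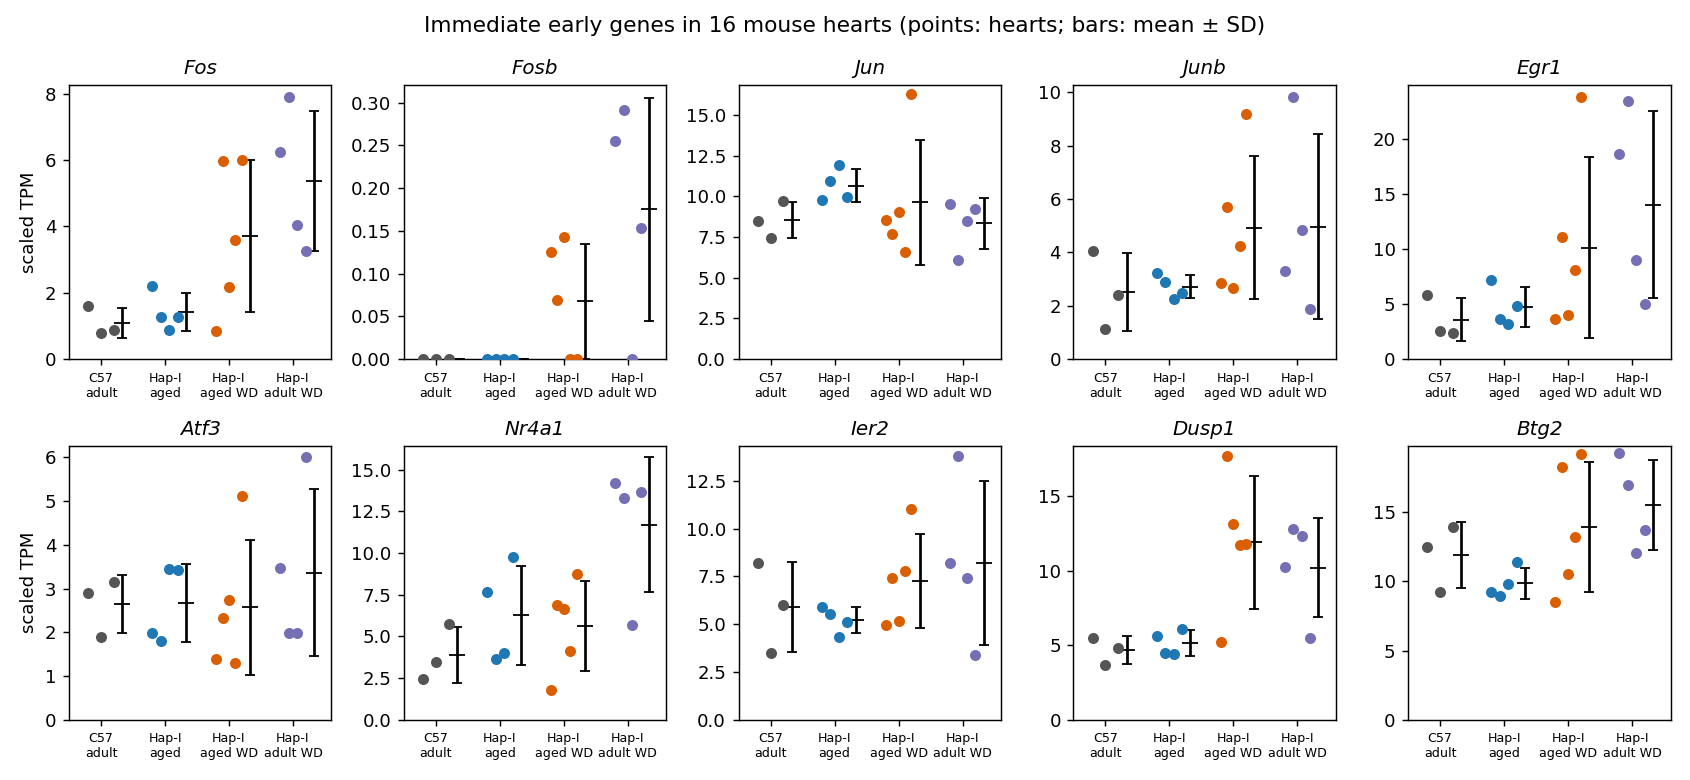
Scaled TPM of the 10 immediate early genes in 16 hearts. Each point is a heart, coloured by group, and the bars are the group mean and SD; the vertical axes start at 0 and differ between genes. Fos and Dusp1 were above all hearts without the diet in 7 of 9 diet hearts each, and Jun in 1. The hearts without the diet pool C57 and aged Hap-I hearts, and no share over all genes was computed.

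Over the 4 groups, an F-test called 2 of the 9 genes tested, Dusp1 (adjusted p = 0.0202) and Fos (0.0211), where 18.3% of all genes tested were called. The share among these genes was thus near the background. Adult diet hearts against C57 gave 1 gene higher, Fos, where 1.95% of all genes were higher, and 0 lower, where 1.5% were. Aged diet hearts against C57 gave 1 gene higher, Dusp1, with 12.3% of all genes higher, and 0 lower, with 9.57% lower. Both comparisons use the same 3 C57 hearts.

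The other 4 comparisons called 0 of the 9 genes in limma. At an unadjusted p under 0.05 there were 2 for aged diet against aged hearts, 1 for aged diet against adult diet hearts, 5 for aged against adult diet hearts and 0 for aged hearts against C57. The shares of all genes at that unadjusted threshold were 15.9%, 19.7%, 21.5% and 27.8%. The calls over all genes were 0.0788% higher and 0.0876% lower for aged diet against aged, 1.67% and 0.718% for aged diet against adult diet, 1.25% and 0.885% for aged against adult diet, and 7.17% and 4.06% for aged against C57. In the last of these the log2 differences of the 9 genes ran from -0.24 to 0.53.

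Median log2 differences of the 9 genes were 0.67 for adult diet hearts and 0.37 for aged diet hearts against C57, 0.41 for aged diet against aged hearts, -0.59 for aged against adult diet hearts, -0.18 for aged diet against adult diet hearts and 0.16 for aged hearts against C57. The medians of all genes tested were between -0.01 and 0.01, as the scaling sets them near 0. Without scaling they ran from -0.16 to 0.27. Of the 9 genes, 8 were positive in both comparisons of diet hearts with C57, the exceptions being Jun in the adult and Atf3 in the aged diet group. Groups did not overlap for 3 genes (Fos, Jun and Btg2) between aged and adult diet hearts, as for 16% of all genes. They did not overlap for Jun between aged hearts and C57 (34.1% of all genes) nor for Fos between adult diet hearts and C57 (18% of all genes).

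**Figure D3:**
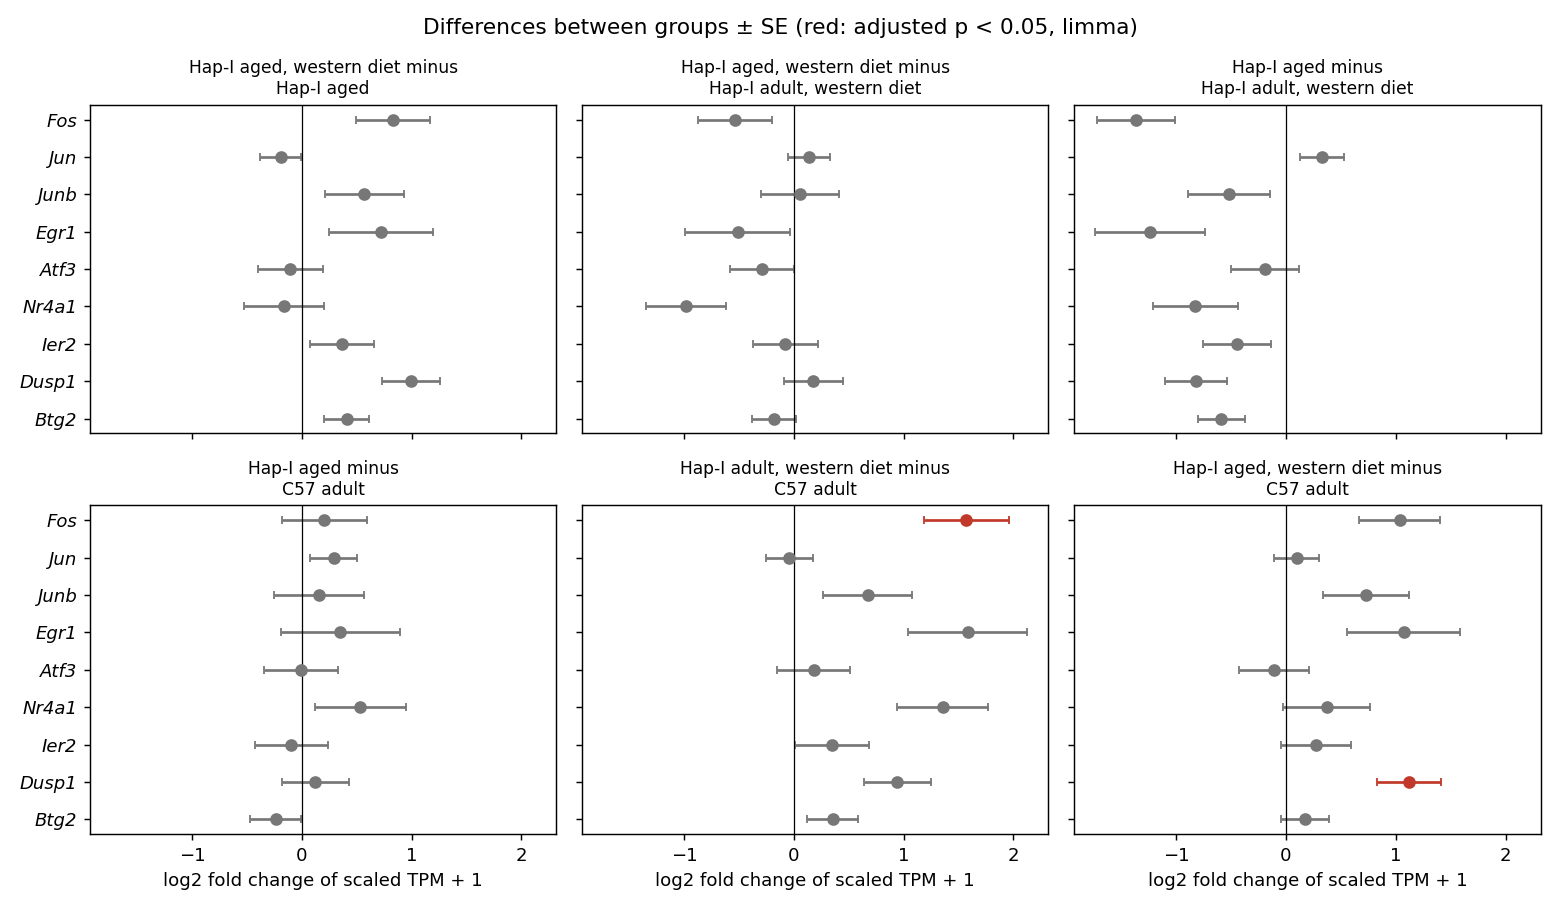
Log2 fold changes of scaled TPM + 1 with their SE for 9 immediate early genes in 6 comparisons between groups. Red points passed an adjusted p of 0.05: Fos at 1.57 in adult diet hearts and Dusp1 at 1.12 in aged diet hearts, both against C57.

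Heart by heart, 6 of the genes varied together: Fos, Egr1, Junb, Ier2, Dusp1 and Btg2. They were not set in advance but picked for their high r, so the range among them is a description. Their 15 pairwise correlations over the 16 hearts lay between 0.65 and 0.93, and between 0.59 and 0.95 once the group means were removed. Fos and Egr1 had the highest (Pearson's r = 0.93, permutation p = 1e-05; Spearman's rho = 0.95, permutation p = 1e-05, the smallest that 100000 permutations give). Adjusted over the 36 pairs of the 9 genes these were 0.00018 and 0.00036; r was 0.90 within groups and 0.90 without the 2 hearts farthest from the median of Fos. Junb and Ier2 had r = 0.93 (permutation p = 1e-05, adjusted 0.00018) and rho = 0.89 (permutation p = 3e-05, adjusted 0.00048), with 0.95 within groups and 0.87 without the 2 hearts farthest in Junb.

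Fos and Dusp1, the genes that differed between groups, had r = 0.84 (permutation p = 0.00017, adjusted 0.00122) and rho = 0.78 (permutation p = 0.00065, adjusted 0.0039), with 0.76 within groups and 0.84 without the 2 hearts farthest in Fos. Nr4a1 was correlated with Fos (r = 0.67) and Btg2 (r = 0.64) more than with Junb (0.29) or Ier2 (0.28). Its r with Fos was above that of the lowest pair among the 6 genes, Junb and Btg2 (0.65). Jun stood apart, with r between -0.22 and 0.07 for every pair except that with Atf3. For Jun and Atf3 r was 0.61 (permutation p = 0.0122, adjusted 0.0244) and rho 0.56 (permutation p = 0.0278, adjusted 0.0557), with 0.75 within groups and 0.46 without the 2 hearts farthest in Jun. This relation thus rested in part on those hearts, among them aged diet replicate 5. Over all 36 pairs, 19 had an adjusted permutation p under 0.05 for r. No share over pairs of other genes was computed, and the libraries share their scaling. The permutations moved hearts between groups, so differences between groups enter these p. No p was computed for r within groups.

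The mean of the 9 standardised log2 levels was highest in aged diet replicate 5 (1.52) and adult diet replicate 2 (0.98), and lowest in C57 replicate 2 (-1.17) and aged diet replicate 1 (-0.93). In aged diet replicate 5 all 9 genes were above their own mean, and in C57 replicate 2 and aged diet replicate 1 none was. The same 2 highest hearts had the highest mitochondrial shares of all, 45.9% and 46.1%. The lowest heart, C57 replicate 2, had 40.3%, and aged diet replicate 4, with a mean of -0.08, had 43.4%. Every diet heart (37.2% or more) had a higher share than every aged heart without the diet. The part of the mitochondrial share in these results was not tested. Size factors were 0.880 and 0.682 in the 2 highest hearts and 1.24 in aged diet replicate 1, but 0.959 in C57 replicate 2 and 0.779 in aged diet replicate 4. Among diet hearts, aged replicates 1 and 3 and adult replicate 4 had the highest (1.24, 1.24 and 1.13). In these hearts Egr1 was not above all hearts without the diet. The highest and the lowest heart of the aged diet group differ in Y-linked transcripts as well, which replicate 5 held and replicate 1 did not. Counts of diet hearts above all hearts without the diet also depend on scaling. In TPM as deposited they were lower for Egr1, Junb, Ier2, Nr4a1, Atf3 and Jun, higher for Fos and unchanged for the others. Egr1 in aged diet replicate 4 (6.27) was then below aged replicate 1 (8.01), and Fos in aged diet replicate 3 (2.69) was above aged replicate 1 (2.47).

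**Figure D4:**
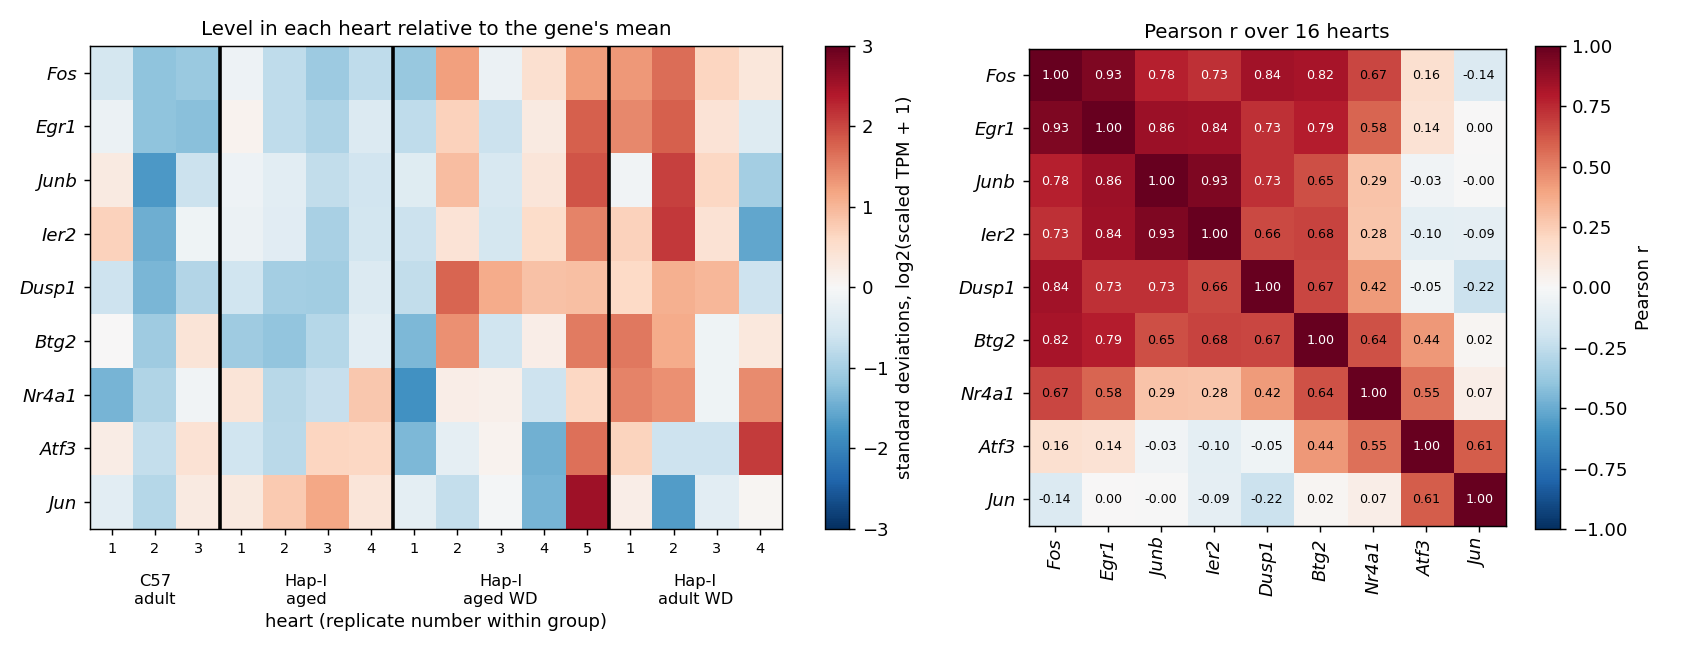
Left, the log2 level of 9 immediate early genes in each of 16 hearts as standard deviations from the gene's mean, with hearts in columns by group and replicate. Right, Pearson's r between each pair of genes over the 16 hearts. Fos, Egr1, Junb, Ier2, Dusp1 and Btg2, picked for their high r, make a block from 0.65 to 0.93, and Jun lies outside it.

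The genes outside the set whose log2 level followed this mean most closely, of 8896 with a mean of at least 2 scaled TPM, were Vasp (r = 0.84), Ccdc69 (0.83), Nfyc (0.82), Actg1 (0.81), Znrf1 (0.80), Rrnad1 (0.79), Cldn5 (0.78), Zfp692 (0.78), Cbfb (0.78) and Rad52 (0.78). These r are a description over 16 libraries that share their scaling. Vasp and Actg1 encode an actin-binding protein and cytoplasmic actin, Nfyc a subunit of a CCAAT-binding factor, and Cldn5 a tight junction protein of endothelium. None of the 10 is an immediate early gene of the lists used here.

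Upstream of these genes, 26 kinases and transcription factors of the pathways that induce them were examined, 25 of them tested. In aged diet hearts 8 rose and 0 fell against C57, where 12.3% of all genes tested were called higher and 9.57% lower, and the median log2 difference of the list was 0.22. Srf, the serum response factor, was at 20.2 ± 2.83 against 11.5 ± 2.74 (SD), a log2 difference of 0.78 ± 0.17 with an adjusted p of 0.00527. Map2k7, a kinase of the JNK cascade, rose by 0.44 ± 0.08 (0.00189), Mef2d, a muscle transcription factor, by 0.50 ± 0.09 (0.00200), and Rps6ka3, a kinase downstream of ERK, by 0.66 ± 0.13 (0.00382). In adult diet hearts Srf was the 1 gene called (0.68 ± 0.18, adjusted p = 0.0474), where 1.95% of all genes tested were higher and 1.5% lower. Among the genes called in aged hearts without the diet, Mef2d and Mapk9 were higher than in C57 and Map2k3 was lower. The 3 comparisons without C57 called 0 of the list.

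Among 8 tested of 11 other AP-1 and leucine zipper factors, Mafg (0.49 ± 0.14, adjusted p = 0.0217) and Mafk (0.33 ± 0.10, 0.0348) rose in aged diet hearts against C57, where 12.3% of all genes tested were called higher. In the other comparisons 0 of these factors were called. Mafg and Mafk encode small Maf proteins, which lack a transactivation domain. Of 8 tested among 11 EGR, NR4A and KLF factors, Nab1, a corepressor of EGR proteins, was higher than in C57 in aged hearts (0.49 ± 0.11, adjusted p = 0.0135) and in aged diet hearts (0.52 ± 0.10, 0.00368). There 7.17% and 12.3% of all genes tested were called higher, so 1 call of 8 in aged diet hearts was near the background. Klf2, an endothelial factor induced by flow, was lower in aged hearts, at 11.5 ± 2.08, than in C57 hearts at 19.7 ± 5.58 (adjusted p = 0.0375) and in adult diet hearts at 20.6 ± 1.71 (0.0426). Over all genes tested, 4.06% and 0.885% were called lower in these comparisons. Of 6 other dual-specificity phosphatases tested among 9, Dusp7 was lower than in C57 in aged (-0.41 ± 0.09, 0.0142) and adult diet hearts (-0.47 ± 0.09, 0.0152). The shares of all genes called lower were 4.06% and 1.5%.

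Of a further 25 rapidly induced genes, 23 were tested. Called lower than in C57 were 3 in aged hearts, 4 in adult diet hearts and 2 in aged diet hearts, where 4.06%, 1.5% and 9.57% of all genes tested were lower, so that the last count was near the background. Against C57, Trib1, a pseudokinase, was lower in aged hearts (-0.40 ± 0.09, adjusted p = 0.0155), in adult diet hearts (-0.64 ± 0.09, 0.00248) and in aged diet hearts (-0.41 ± 0.09, 0.00611). Ccn2, a matricellular growth factor, was lower in adult (-1.21 ± 0.31, 0.0464) and aged diet hearts (-1.03 ± 0.30, 0.0243), although groups overlapped. Ier5 (-0.76 ± 0.18, 0.0362) and the clock gene Per1 (-1.41 ± 0.34, 0.0329) were lower in adult diet hearts. Rhob, a small GTPase (-0.69 ± 0.13, 0.00564), and Nfkbia, the inhibitor of NF-kappaB (-0.93 ± 0.17, 0.00584), were lower in aged hearts. In aged hearts Rhob was also lower than in adult diet hearts (-0.52 ± 0.12, 0.0369). None of the 23 was called higher in any of the 6 comparisons, and the median log2 difference from C57 was -0.16 in aged, -0.04 in adult diet and -0.26 in aged diet hearts. All 3 comparisons share the C57 hearts.

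Markers of several cell types differed between the same groups. In these whole-tissue libraries, fewer cells of a type and less RNA per cell cannot be told apart. All 4 atrial markers were called lower in aged diet hearts than in C57, where 9.57% of all genes tested were. Their summed levels were 2.33 to 31.2 against 49.3 to 3323. The summed level was 3.27 to 677 in adult diet hearts and 3.08 to 2175 in aged hearts. With the atrial level as a covariate the log2 difference of Fos between adult diet and C57 hearts was 1.59 (adjusted p = 0.102) and that of Dusp1 between aged diet and C57 hearts was 1.01 (0.122). With the presence of Y-linked transcripts as a covariate these were 1.59 (0.0905) and 1.04 (0.0602). The sizes thus changed little while both calls were lost.

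The 8 cardiomyocyte markers, all present in every group, summed to 46481 to 51038 in C57 hearts, 37964 to 48331 in aged hearts, 35398 to 43820 in aged diet hearts and 34974 to 45421 in adult diet hearts. The sums of both diet groups were thus below those of all C57 hearts. Of the 8 differences from C57, 3 were positive in each diet group, with medians of -0.18 in aged and -0.26 in adult diet hearts. In aged diet hearts against C57, the comparison in which Dusp1 was called, 2 of the 8 (Tnni3 and Tnnt2) were called lower and 0 higher. There 9.57% of all genes tested were called lower and 12.3% higher. Myh6 was called higher in aged than in adult diet hearts, where 1.25% of all genes tested were. Of 7 fibroblast markers 3 were called lower in aged diet hearts than in C57 (9.57% of all genes tested), and 1 of the 7 differences was positive. The summed levels were 326 to 669 against 816 to 1062. None of 8 endothelial markers was called in that comparison. In adult diet hearts against C57, 1 of the 8, Cldn5, was called higher and 0 lower, with 1.95% and 1.5% over all genes tested. Of the 8, 2 had a positive log2 difference and the median was -0.40. Of 6 smooth muscle and pericyte markers tested among 7, Myh11 was called lower in aged diet hearts against aged hearts (list median -0.64), in adult diet hearts against C57 (-0.57) and, with Tagln, in aged diet hearts against C57 (-0.40). Of the 6 differences, 2, 1 and 1 were positive in these comparisons, where 0.0876%, 1.5% and 9.57% of all genes tested were called lower. Cspg4 was called higher in aged than in adult diet hearts (1.25% of all genes tested). Of 8 leukocyte markers tested among 10, 1 (Cd74) was called lower in aged diet hearts than in C57 (9.57% of all genes tested). Of the 8 differences 4 were positive, and the median was 0.01. The 5 erythroid markers summed to 2675 to 4659 in C57, 2282 to 3989 in aged, 1781 to 7676 in aged diet and 2163 to 8399 in adult diet hearts, and 0 of them were called. The part of the cell types in the levels of the immediate early genes was not tested.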

How the data were processed

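Polyadenylated RNA of 16 hearts was sequenced from strand-preserving libraries, per the labels' protocols. The authors deposited 1 table of TPM per gene; GRCm38, kallisto and DESeq2 are named, without versions, per the submitters' processing notes. Groups came from the sample labels. Genes were kept where 3 or more libraries reached 1 TPM (11415 genes), and each library was scaled by its median-of-ratios size factor. On log2(scaled TPM + 1), limma 3.58.1 (R 4.3.3) estimated a mean per group with a variance trend from all 16 libraries, followed by an F-test and 6 contrasts. Two-sided p-values were adjusted by Benjamini-Hochberg over all genes, and a gene was called under 0.05. The script was tested on simulated data.

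Genes named were the 10 members, called members of the lists (up to 4 per list and comparison by smallest p) and the 10 genes most like the mean of the members; not every gene that this rule names is reported here. The members and lists were chosen with earlier results of these data known. Correlations used 100000 permutations. Alternatives changed the scaling, pseudocount, filter, variance, weights, threshold, covariates and libraries. A correction for transcript length and a fit restricted to the 11 hearts in which Y-linked transcripts were present were chosen after seeing the data. The labels do not say that animals of a group came from separate litters, so p-values measure the spread between these animals.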

Additional observations from a re-analysis of the deposited data

Results flagged for a closer look

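Nr4a1 was at 5.67 scaled TPM in replicate 3 of the adult Hap-I hearts on the diet, whereas the other 3 hearts of that group lay between 13.3 and 14.2. The gap to the nearest heart was 0.927 of the group's whole range, above Dixon's critical value for 4 samples. Chance flags about 1 in 20 groups; here 1 of the 27 combinations of gene and group examined was marked.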

How the results depend on the processing

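None of the log2 differences of Fos and Dusp1 called against C57 changed direction under any alternative; Fos ran from 1.18 to 2.19 and Dusp1 from 0.97 to 1.36. The counts of called genes were less stable. The F-test count of 2 became 0 with no filter on low values, at an adjusted p of 0.01, with the sex covariate and with the atrial covariate, and was 1 (without C57 replicate 3) to 3 (without adult diet replicate 3 or 4) with a library left out. For adult diet hearts against C57 the count of 1 became 0 under the same 4 settings and among the hearts with Y-linked transcripts, 3 with library weights, and 0 to 3 with a library left out. For aged diet hearts against C57 the count of 1 became 0 at an adjusted p of 0.01 and with the sex and atrial covariates, 2 with a filter at 5 TPM and with the length correction, 3 among the hearts with Y-linked transcripts (Fos, Egr1 and Dusp1), and 0 to 2 with a library left out. For aged against adult diet hearts the count of 0 became 4 with library weights (Fos, Egr1, Dusp1 and Btg2), 1 in a model of only the groups compared (Fos), and 0 to 2 with a library left out. For aged diet against aged hearts the count of 0 became 1 with library weights (Dusp1) and among hearts with Y-linked transcripts (Fos), and 0 to 1 with a library left out. The other comparisons stayed at 0 in all 31 alternatives. Aged diet replicate 1 and adult diet replicate 4 were the libraries whose omission added calls most often: without aged diet replicate 1, adult diet hearts against C57 gave Fos, Nr4a1 (adjusted p = 0.0474) and Dusp1 (0.0382), and Fos against C57 in aged diet hearts had 0.00833. The omission of aged diet replicate 1, aged diet replicate 5 or adult diet replicate 4 brought Fos in aged against adult diet hearts to 0.0214, 0.0458 and 0.0340, and the last of them Dusp1 to 0.0359. With no scaling the median of all genes moved by -0.16 to 0.27 (log2), and no call was lost. The cause of these changes was not tested. No paired analysis was possible because the animal numbers are not shared between groups. TPM keep no depth, so precision at low levels, such as those of Fosb, is unknown.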

Other observations

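Heat shock genes encode chaperones that are induced by stress. Of 10 such genes, 1 was called lower than in C57 in aged hearts, 0 in adult diet hearts (5 at an unadjusted p under 0.05 in limma) and 3 in aged diet hearts, where 4.06%, 1.5% and 9.57% of all genes tested were lower, and 0 were called higher. Of the 10, 9 had a negative log2 difference from C57 in each of the 3 Hap-I groups, which share the C57 hearts, with medians of -0.49 in aged, -0.53 in adult diet and -0.43 in aged diet hearts. Hspb1, a small heat shock protein of muscle, fell in aged hearts (127.9 ± 8.87 against 243 ± 84.4 scaled TPM, SD; adjusted p = 0.0113 in limma) and in aged diet hearts (149 ± 20.8; 0.0190). Hspe1 (115 ± 23.7 against 161 ± 6.20; 0.0346) and Bag3 (65.2 ± 8.33 against 88.5 ± 10.95; 0.0493) fell in aged diet hearts.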
